A study of Homo sapiens with 15 samples.

Results

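Of the 16604 genes in the table, 9 genes of epithelial identity were followed across OVCAR4 ovarian cancer cells and 4 platinum-resistant lines derived from them. They were chosen by name and role: the splicing regulators ESRP1, ESRP2 and RBM47, the transcription factor ELF3, the adhesion protein EPCAM, the membrane proteases ST14 (matriptase) and PRSS8 (prostasin), and the protease inhibitors SPINT1 and SPINT2. No expression value entered the rule, but earlier results of these data were known when the genes were chosen. All 9 were present in the table.

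ESRP1 and ESRP2 are RNA-binding proteins of epithelial cells that direct the choice of epithelial exons in transcripts such as FGFR2, CD44, CTNND1 and ENAH, and RBM47 is an RNA-binding protein that takes part in splicing, RNA editing and transcript stability. Matriptase is a serine protease anchored in the epithelial surface that activates, and is activated by, prostasin, and the Kunitz-type inhibitors HAI-1 (SPINT1) and HAI-2 (SPINT2) hold both proteases in check. EPCAM, a surface protein that stabilises claudin-7, is a matriptase substrate, and ELF3 is an ETS-family factor of epithelial tissues. These genes are commonly lost together when carcinoma cells take on mesenchymal features, which is general background and not a result of these data.

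OVCAR4 is a long-used cell line model of high-grade serous carcinoma of the ovary. Ovcar4Parental, the line that was not selected with platinum, was compared with Ov4Cis, selected in rising cisplatin, and Ov4Carbo, selected in rising carboplatin, 2 drugs that crosslink DNA. Ov4Carbo4 and Ov4Carbo7 were each grown from a single cell of Ov4Carbo, so each of them is 1 clone. Selection went on until the IC50 had risen by a factor of 2 to 10, and all lines were grown in DMEM with serum. Each line has 3 samples, described as biological replicates of a culture, and each resistant state is represented by 1 line. The p-values therefore measure the spread between cultures within lines and not between independent selections.

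The values are log2 RPKM (reads scaled for gene length and library size, on the log2 scale), adjusted further by the authors with cqn, a quantile normalization that takes GC content and length into account. They are per length, so levels can be compared between genes, but only roughly. How reads shared by overlapping genes were assigned is not given in the sources used here. The sequencing depth is unknown, and very low values, which reach -8.18, are uncertain in size. In bulk RNA, fewer cells with a transcript and less transcript per cell cannot be told apart. PAX8 (line means 5.85 to 6.74) and SOX17 (6.65 to 7.76), factors of the fallopian and serous lineage, were high in every line, whereas WT1, another serous marker, was low in every line (-5.07 to -1.52). In Ov4Cis, KRT7 was -0.57, KRT19 -2.45, MUC16 -1.73 and CDH1 -3.52, against 8.28, 6.21, 4.60 and 4.63 in the parental line. Of the 10 serous and epithelial markers, 7 were lower than in the parental line in Ov4Cis (7.41% of all genes), 2 in Ov4Carbo (6.93%), 4 in Ov4Carbo4 (7.70%) and 7 in Ov4Carbo7 (7.75%). In each line but Ov4Carbo7, where there was none, 1 of them was higher. Their part in the results below was not tested. Of 8 fibroblast markers, 5 were in the table, and their summed level was 7.23 to 9.63 RPKM in the parental samples, 4.42 to 6.62 in Ov4Cis, 6.33 to 7.69 in Ov4Carbo, 11.5 to 14.6 in Ov4Carbo4 and 7.54 to 9.44 in Ov4Carbo7. Of 7 leukocyte and endothelial markers, VWF and CDH5 were in the table, with a summed level of 6.13 to 6.96 in the parental samples, 31.8 to 40.4 in Ov4Cis, 4.20 to 6.03 in Ov4Carbo, 20.6 to 25.1 in Ov4Carbo4 and 8.79 to 10.2 in Ov4Carbo7. CDH5 (VE-cadherin) made up most of that sum, with line means of 2.15 to 5.13 log2 RPKM, and VWF lay between -1.65 and -0.18.

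A gene is said to have risen, fallen or differed when limma's moderated test gave a Benjamini-Hochberg adjusted p under 0.05 over all 16604 genes together with a log2 difference of at least 1. The spread of a gene was pooled over the cultures of all 5 lines. Samples of a line outside a comparison therefore also bear on its p-value. Sample titles hold numbers from 2 separate series: replicate 1 of Ov4Carbo and all samples of Ov4Carbo4 and Ov4Carbo7 belong to the lower series, and all others to the higher. The labels do not say what the numbers stand for. Ov4Cis and the parental line share a series, as do the 2 clones, but a difference between the series cannot be told apart from the difference between a clone and the parental line except through Ov4Carbo, the only line in both.

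RefSeq promoter sequences (GRCh38.p14) were at hand for 3 of the 9 genes, RBM47, ELF3 and SPINT1, as 7 windows of the 250 bases before a transcription start. They are shown because repressors of the ZEB and SNAI families bind the E-box CACCTG in promoters of epithelial genes, and because RBM47 behaved unlike the others. CACCTG or its reverse complement CAGGTG was present in 3 of the 7 windows, 1 of each gene, and in 17.5% of all 35116 such windows. RBM47 and SPINT1 have several starts, and their windows with the E-box lie downstream of another start of the same gene. These sites were not limited to stretches outside annotated exons. The sites follow 5′ to 3′ on the strand of the gene, with the E-box in capitals.
ELF3 (chr1:202010455-202010484, plus strand, E-box starting 120 bases before the start): gaatatgcaaatCACCTGgggccaggagcc
SPINT1 (chr15:40844439-40844468, plus strand, 26 bases before the start): tcccgggctgatCAGGTGtgtctcctcctc
RBM47 (chr4:40514772-40514801, minus strand, 208 bases before the start): ctccgcccccacCACCTGaaagtttgacat

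The GRHL motif AACCGGTT (0.117% of all windows) and the ETS motif CCGGAAG (8.52%), also searched on both strands, were in 0 of the 7. None of the 3 motifs overlaps another in these windows. Below are stretches of 2 further windows that hold none of them and lie outside annotated exons. A match is a description of letters and not a binding site, and no match says only that these letters are absent from the window.
SPINT1 (chr15:40843798-40844017, plus strand, the stretch ends 31 bases before the start): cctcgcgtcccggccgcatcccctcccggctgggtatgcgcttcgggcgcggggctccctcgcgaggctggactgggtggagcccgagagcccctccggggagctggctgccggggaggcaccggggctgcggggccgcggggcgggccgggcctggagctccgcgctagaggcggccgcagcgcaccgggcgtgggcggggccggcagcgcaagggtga
RBM47 (chr4:40515986-40516235, minus strand, the stretch ends at the base before the start): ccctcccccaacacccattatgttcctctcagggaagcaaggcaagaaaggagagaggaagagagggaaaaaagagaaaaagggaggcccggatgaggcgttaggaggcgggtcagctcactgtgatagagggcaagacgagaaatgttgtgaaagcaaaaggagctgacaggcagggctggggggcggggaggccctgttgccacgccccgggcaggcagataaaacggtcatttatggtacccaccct
The SPINT1 stretch was 80.9% G and C and the RBM47 stretch 56.8%. ESRP1, ESRP2, EPCAM, ST14, SPINT2 and PRSS8 had no entry.

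The first question was which of the 9 genes differed between each resistant line and the parental line. In Ov4Cis, 8 of the 9 were lower and 0 higher, the exception being RBM47, against 7.41% of all genes lower. In Ov4Carbo, 5 were lower (ESRP1, ST14, PRSS8, SPINT1 and SPINT2), against 6.93% of all genes. In Ov4Carbo4, 4 were lower (ESRP1, ST14, PRSS8 and RBM47), against 7.70%. When the title series was a term in the fit, 2 of these 4 remained called (ST14 and RBM47), against 8.44% of all genes lower in that fit. In Ov4Carbo7, 7 were lower, all but ESRP2 and RBM47, against 7.75%. The PRSS8 call among them was lost with the title series as a term. The median log2 difference over the 9 genes was -5.38 in Ov4Cis and -2.97 in Ov4Carbo7, and it was -1.08 for Ov4Carbo and -0.87 for Ov4Carbo4. The median over all genes was 0.04, 0.02, 0.03 and 0.07 in the same order. The 4 comparisons share the 3 parental samples. ESRP1, ST14 and PRSS8 were lower in each of the 4, as were 1.65% of all genes.

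**Figure D1:**
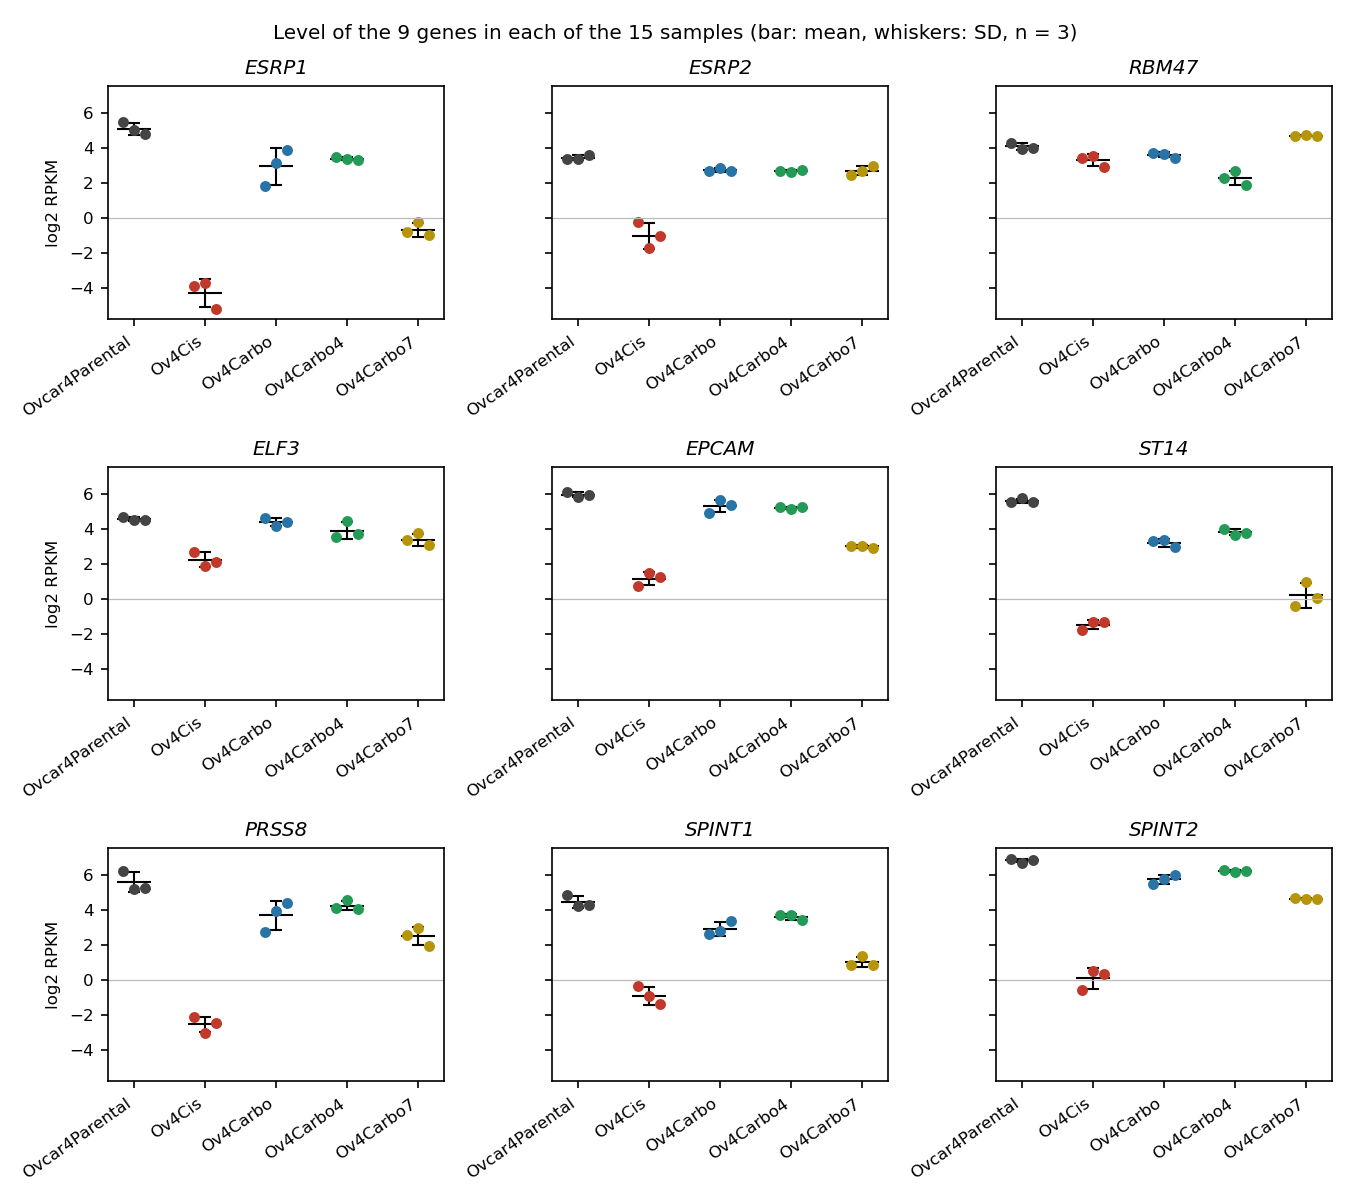
Level of each of the 9 genes as log2 RPKM (vertical axis, the same in every panel) in the 15 samples, by line (horizontal axis). Points are samples, bars are line means and whiskers are SD (n = 3). Ov4Cis lies lowest for every gene except RBM47, which is lowest in Ov4Carbo4 and highest in Ov4Carbo7.

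Among the splicing regulators, ESRP1 (ENSG00000104413, chromosome 8) spanned the widest range. Its log2 RPKM was 5.48, 5.05 and 4.81 in the parental replicates, -3.90, -3.74 and -5.21 in Ov4Cis, and 1.82, 3.14 and 3.90 in Ov4Carbo. It was 3.47, 3.39 and 3.32 in Ov4Carbo4 and -0.82, -0.23 and -1.0 in Ov4Carbo7. All 12 resistant samples lay below the 3 parental ones, and every Ov4Cis sample lay below every other sample. Against the parental line ESRP1 fell by 9.40 ± 0.48 (SE) on the log2 scale in Ov4Cis (limma adjusted p = 2.44e-08), the 5th lowest of the 16604 differences. It fell by 5.79 ± 0.48 in Ov4Carbo7 (adjusted p = 1.78e-06), by 2.16 ± 0.48 in Ov4Carbo (0.00432) and by 1.72 ± 0.48 in Ov4Carbo4 (0.0123). In the order of the lines, Ov4Carbo4 and Ov4Carbo did not separate (difference 0.44, adjusted p = 0.481, overlapping values), and each other step in the order passed the test. The size in Ov4Cis depends on the treatment of low values: on log2(RPKM + 1) it was -5.08. With a term for the title series, the Ov4Carbo4 difference was -0.02 (adjusted p = 0.989) and the Ov4Carbo7 difference -4.09 (0.00153).

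ESRP2 (ENSG00000103067, chromosome 16), the paralogue of ESRP1, was reduced in 1 line. Its log2 RPKM was 3.36, 3.36 and 3.62 in the parental replicates and -0.24, -1.73 and -1.05 in Ov4Cis. The 9 samples of the 3 carboplatin lines lay between 2.45 and 2.95. Those 9 samples were thus all below the parental ones and all well above Ov4Cis. ESRP2 fell by 4.46 ± 0.27 in Ov4Cis (limma adjusted p = 1.16e-07), a 21.9-fold lower level. That size depends on the treatment of low values: on log2(RPKM + 1) the difference was -2.96. For the carboplatin line and its clones 4 and 7 the log2 difference was -0.68, -0.75 and -0.75, short of the size required, with adjusted p of 0.0727, 0.0446 and 0.0431. The 3 carboplatin lines did not separate from each other (largest difference 0.07, with a 95% interval of -0.67 to 0.52 for Ov4Carbo4 against Ov4Carbo). ESRP2 exons overlap those of NFATC3 on the other strand and those of AC020978.5, a non-coding gene that is also in the table, on the same strand in GENCODE v29. How reads shared with AC020978.5 were assigned and whether reads were counted by strand are not given in the sources used here.

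The balance between the paralogues was therefore compared between lines, a comparison chosen after the values were seen. The log2 ratio of ESRP1 to ESRP2 was 2.13, 1.68 and 1.19 in the parental samples and 0.79, 0.75 and 0.56 in Ov4Carbo4. It was -0.90, 0.25 and 1.22 in Ov4Carbo, -3.65, -2.01 and -4.16 in Ov4Cis and -3.26, -2.92 and -3.95 in Ov4Carbo7. ESRP1 had the higher value in all parental and Ov4Carbo4 samples, ESRP2 in all Ov4Cis and Ov4Carbo7 samples, and Ov4Carbo held both cases. The mean ratio was -3.27 in Ov4Cis and -3.38 in Ov4Carbo7, but ESRP2 itself was 3.71 log2 units lower in Ov4Cis than in Ov4Carbo7 (limma adjusted p = 9.31e-07). Against the parental line the ratio differed by -4.94 in Ov4Cis, -5.04 in Ov4Carbo7 and -0.97 in Ov4Carbo4, with no overlap of samples (exact two-sided permutation p = 0.1 each, the smallest that 3 against 3 samples allow). In Ov4Carbo it differed by -1.48, with overlap (exact permutation p = 0.2). On log2(RPKM + 1) the difference was -2.11 in Ov4Cis and -3.78 in Ov4Carbo7, so the near-equal size in these lines depends on the treatment of low values. The ratio was not fitted with a term for the title series, which separates both clones from the parental line. With that term in the fits of single genes, the Ov4Carbo4 difference was -0.02 for ESRP1 and -0.69 for ESRP2. The lower ratio in Ov4Carbo4 therefore cannot be told apart from a difference between the series.

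RBM47 (ENSG00000163694, chromosome 4) did not follow the ESRP genes. Its log2 RPKM was 4.31, 3.98 and 4.01 in the parental replicates, 3.44, 3.58 and 2.95 in Ov4Cis and 3.75, 3.66 and 3.46 in Ov4Carbo. It was 2.29, 2.71 and 1.87 in Ov4Carbo4 and 4.67, 4.76 and 4.71 in Ov4Carbo7. Of the 15 samples, the 3 of Ov4Carbo7 were the highest and the 3 of Ov4Carbo4 the lowest, although both clones came from Ov4Carbo. RBM47 was 2.42 ± 0.20 log2 units higher in Ov4Carbo7 than in Ov4Carbo4 (limma adjusted p = 1.55e-06), a 5.36-fold difference between lines of the same title series. Against Ov4Carbo it was 1.09 ± 0.20 higher in Ov4Carbo7 (adjusted p = 0.00135, and 0.96 with a term for the title series, under the size required) and 1.33 ± 0.20 lower in Ov4Carbo4 (0.0003). Against the parental line it fell by 1.81 ± 0.20 in Ov4Carbo4 (adjusted p = 2.37e-05). The log2 difference from the parental line was -0.78 in Ov4Cis, -0.48 in Ov4Carbo and 0.61 in Ov4Carbo7 (adjusted p = 0.00924, 0.0876 and 0.0282), each under the size required. Ov4Cis and Ov4Carbo overlapped. AC098869.2, an antisense gene that is not in the table, overlaps RBM47.

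ELF3 (ENSG00000163435, chromosome 1) had log2 RPKM values of 4.69, 4.53 and 4.52 in the parental samples, 4.67, 4.20 and 4.43 in Ov4Carbo and 3.55, 4.45 and 3.73 in Ov4Carbo4. It had 3.36, 3.77 and 3.09 in Ov4Carbo7 and 2.71, 1.91 and 2.15 in Ov4Cis. Parental and Ov4Carbo samples overlapped, as did those of Ov4Carbo with Ov4Carbo4 and of Ov4Carbo4 with Ov4Carbo7, while Ov4Cis lay below all. ELF3 fell by 2.33 ± 0.26 in Ov4Cis (limma adjusted p = 1.74e-05) and by 1.18 ± 0.26 in Ov4Carbo7 (0.00283). The log2 difference was -0.15 in Ov4Carbo (adjusted p = 0.69) and -0.67 in Ov4Carbo4 (0.0547). Ov4Cis was 1.15 lower than Ov4Carbo7 (adjusted p = 0.00365), a difference that was -0.98 without replicate 2 of Ov4Cis and -0.97 without replicate 2 of Ov4Carbo7, under the size required. With a term for the title series it was -0.80 (0.224). ELF3-AS1, an antisense gene in the table, overlaps ELF3 exons.

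EPCAM (ENSG00000119888, chromosome 2) had log2 RPKM values of 6.13, 5.86 and 5.96 in the parental samples, 4.94, 5.65 and 5.36 in Ov4Carbo and 5.28, 5.16 and 5.26 in Ov4Carbo4. The values were 3.06, 3.04 and 2.93 in Ov4Carbo7 and 0.76, 1.52 and 1.24 in Ov4Cis. The parental samples were the highest, Ov4Carbo and Ov4Carbo4 overlapped just below them, and Ov4Carbo7 and Ov4Cis each stood apart further down. EPCAM fell by 4.81 ± 0.19 in Ov4Cis (limma adjusted p = 2.65e-09) and by 2.97 ± 0.19 in Ov4Carbo7 (2.92e-07), to 3.57% and 12.8% of the parental level. In Ov4Carbo and Ov4Carbo4 the log2 difference was -0.66 (adjusted p = 0.0192) and -0.75 (0.00825), under the size required.

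Both proteases were lower in all 4 resistant lines. ST14 (ENSG00000149418, chromosome 11), the matriptase gene, had log2 RPKM values of 5.54, 5.77 and 5.56 in the parental samples, 4.01, 3.69 and 3.77 in Ov4Carbo4 and 3.31, 3.41 and 2.96 in Ov4Carbo. They were -0.43, 1.0 and 0.04 in Ov4Carbo7 and -1.75, -1.33 and -1.34 in Ov4Cis. No 2 lines overlapped. ST14 fell by 7.10 ± 0.28 in Ov4Cis (limma adjusted p = 2.44e-09), 5.42 ± 0.28 in Ov4Carbo7 (6.98e-08), 2.40 ± 0.28 in Ov4Carbo (5.36e-05) and 1.80 ± 0.28 in Ov4Carbo4 (0.000296), and in each line the call was kept with a term for the title series. The step between Ov4Carbo4 and Ov4Carbo (0.60, adjusted p = 0.105) was the only one between neighbours in the order that did not pass. No other gene overlaps ST14 exons in GENCODE v29.

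PRSS8 (ENSG00000052344, chromosome 16), the prostasin gene, had log2 RPKM values of 6.27, 5.24 and 5.29 in the parental samples, 4.15, 4.56 and 4.06 in Ov4Carbo4 and 2.77, 3.93 and 4.42 in Ov4Carbo. They were 2.59, 2.98 and 1.96 in Ov4Carbo7 and -2.14, -3.03 and -2.46 in Ov4Cis. All resistant samples were below all parental ones, Ov4Carbo overlapped both of its clones, and Ov4Cis lay far below the rest. PRSS8 fell by 8.14 ± 0.42 in Ov4Cis (limma adjusted p = 2.56e-08), where it ranked 19th from the lowest of all genes, by 3.09 ± 0.42 in Ov4Carbo7 (8.61e-05), by 1.89 ± 0.42 in Ov4Carbo (0.00446) and by 1.34 ± 0.42 in Ov4Carbo4 (0.0226). The Ov4Carbo4 call was lost without parental replicate 1 (-1.01, adjusted p = 0.0958), Ov4Carbo4 replicate 1 (-1.29, 0.0627) or Ov4Carbo4 replicate 3 (-1.25, 0.0717), and with a term for the title series the difference was 0.06 (0.957). That term also ended the Ov4Carbo7 call (-1.69, adjusted p = 0.0616), and on log2(RPKM + 1) the Ov4Cis difference was -5.40. AC009088.3, an antisense gene that is not in the table, overlaps PRSS8.

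Of the inhibitors, SPINT1 (ENSG00000166145, chromosome 15) had log2 RPKM values of 4.89, 4.25 and 4.31 in the parental samples, 3.69, 3.70 and 3.43 in Ov4Carbo4 and 2.63, 2.79 and 3.39 in Ov4Carbo. They were 0.88, 1.37 and 0.88 in Ov4Carbo7 and -0.37, -0.93 and -1.40 in Ov4Cis. The 5 lines did not overlap and stood in the same order as for ST14. SPINT1 fell by 5.38 ± 0.27 in Ov4Cis (limma adjusted p = 2.44e-08), 3.44 ± 0.27 in Ov4Carbo7 (1.36e-06) and 1.55 ± 0.27 in Ov4Carbo (0.00109). The log2 difference of -0.87 in Ov4Carbo4 (adjusted p = 0.0228) was under the size required. SPINT1-AS1, an antisense gene in the table, overlaps SPINT1 exons.

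SPINT2 (ENSG00000167642, chromosome 19) had the highest values of the 9 genes in the parental line, at log2 RPKM 6.93, 6.73 and 6.89. It was 6.29, 6.16 and 6.22 in Ov4Carbo4 and 5.52, 5.78 and 6.01 in Ov4Carbo. It was 4.70, 4.62 and 4.66 in Ov4Carbo7 and -0.60, 0.52 and 0.35 in Ov4Cis. Again no 2 lines overlapped, but Ov4Carbo7 kept far more SPINT2 than Ov4Cis, a difference of 4.57 ± 0.23 on the log2 scale (limma adjusted p = 3.58e-08). Against the parental line SPINT2 fell by 6.76 ± 0.23 in Ov4Cis (adjusted p = 6.57e-10), 2.18 ± 0.23 in Ov4Carbo7 (1.13e-05) and 1.08 ± 0.23 in Ov4Carbo (0.00346). The Ov4Carbo value was -0.95 without its replicate 1, under the size required, and the Ov4Carbo4 difference was -0.62 (adjusted p = 0.0463). AC011479.1, a protein-coding gene on the same strand that is not in the table, overlaps SPINT2 in GENCODE v29. How reads shared by the pair were assigned is not given in the sources used here.

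**Figure D2:**
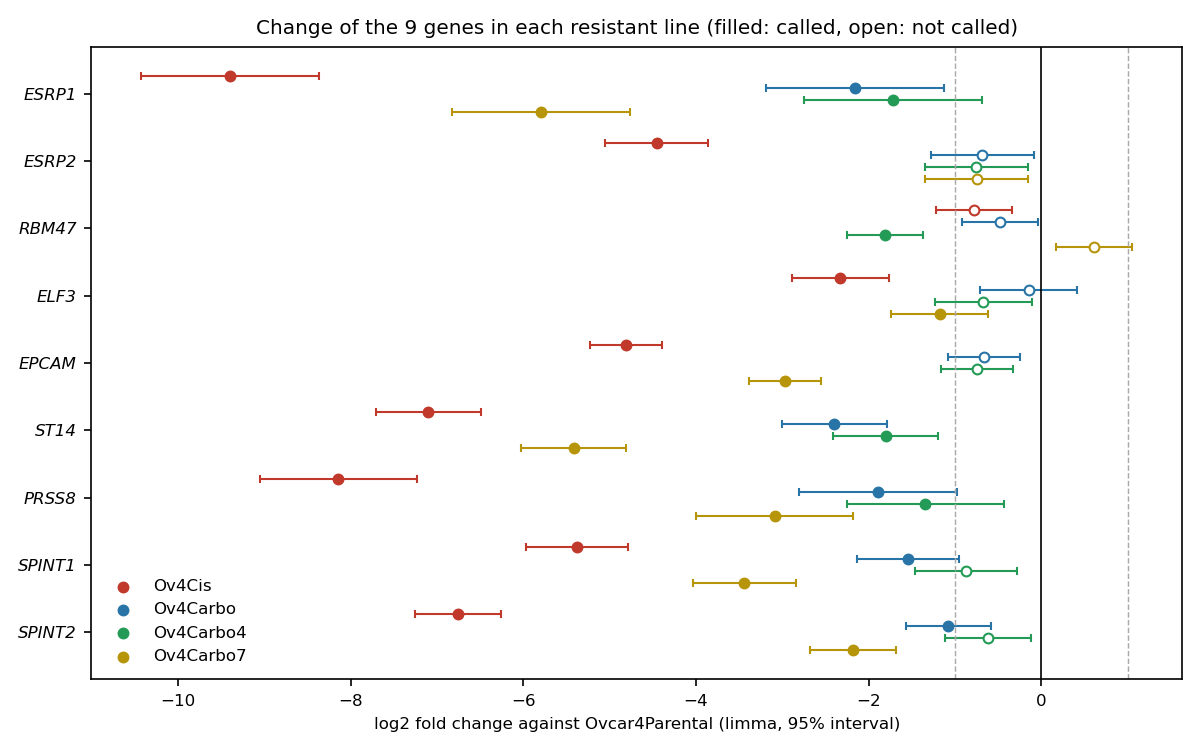
Log2 fold change of the 9 genes (vertical axis) in each resistant line against Ovcar4Parental (horizontal axis), as estimated by limma from 3 samples a line, with 95% intervals. Filled points passed the test and the size required, open points did not, and dashed lines mark a log2 change of 1 in either direction. Ov4Cis (red) and Ov4Carbo7 (dark yellow) lie furthest to the left for 7 of the genes, from ELF3 at -2.33 and -1.18 to ESRP1 at -9.40 and -5.79.

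The balance of protease and inhibitor transcripts was compared as a log2 ratio within each sample, with 12 comparisons in all and exact two-sided permutation tests, whose smallest p for 3 against 3 samples is 0.1. The ratio of ST14 to SPINT1 was 0.65, 1.52 and 1.25 in the parental samples, -1.39, -0.40 and 0.06 in Ov4Cis and -1.31, -0.36 and -0.84 in Ov4Carbo7. It was 0.68, 0.62 and -0.43 in Ov4Carbo and 0.32, -0.01 and 0.34 in Ov4Carbo4. ST14 exceeded SPINT1 in every parental sample, and Ov4Cis, Ov4Carbo4 and Ov4Carbo7 lay wholly below the parental ratios while Ov4Carbo overlapped them. The difference from the parental line was -1.72 in Ov4Cis, -0.93 in Ov4Carbo4 and -1.98 in Ov4Carbo7 (exact permutation p = 0.1 each, adjusted 0.15). It was -0.85 in Ov4Carbo (exact permutation p = 0.2, adjusted 0.24). None of the ratios was fitted with a term for the title series, which separates both clones from the parental line.

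The ratio of ST14 to SPINT2 set Ov4Carbo7 apart. It was -1.39, -0.95 and -1.33 in the parental samples, -1.15, -1.86 and -1.69 in Ov4Cis and -5.13, -3.62 and -4.62 in Ov4Carbo7. It was -2.21, -2.37 and -3.05 in Ov4Carbo and -2.28, -2.47 and -2.46 in Ov4Carbo4. SPINT2 exceeded ST14 in all 15 samples, most in Ov4Carbo7, and the Ov4Cis samples overlapped the parental ones although ST14 was 137-fold and SPINT2 108-fold lower there than in the parental line. The difference from the parental line was -3.23 in Ov4Carbo7, -1.32 in Ov4Carbo and -1.18 in Ov4Carbo4 (exact permutation p = 0.1 each, adjusted 0.15), and -0.34 in Ov4Cis (exact permutation p = 0.3, adjusted 0.327). The Ov4Cis difference turned to 0.59 on log2(RPKM + 1).

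The ratio of PRSS8 to SPINT1 set Ov4Cis apart. It was 1.38, 0.99 and 0.98 in the parental samples, -1.78, -2.10 and -1.07 in Ov4Cis and 1.71, 1.61 and 1.08 in Ov4Carbo7. It was 0.14, 1.15 and 1.03 in Ov4Carbo and 0.46, 0.86 and 0.64 in Ov4Carbo4. PRSS8 exceeded SPINT1 in every sample except the 3 of Ov4Cis. The difference from the parental line was -2.76 in Ov4Cis (-1.48 on log2(RPKM + 1)) and -0.47 in Ov4Carbo4 (exact permutation p = 0.1 each, adjusted 0.15). It was -0.34 in Ov4Carbo (exact permutation p = 0.6) and 0.35 in Ov4Carbo7 (exact permutation p = 0.2), both with overlap. Replicate 1 of Ov4Carbo, from the same title series as the clones, had 0.14, and replicates 2 and 3 had 1.15 and 1.03. The Ov4Carbo4 difference therefore cannot be told apart from a difference between the series.

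**Figure D3:**
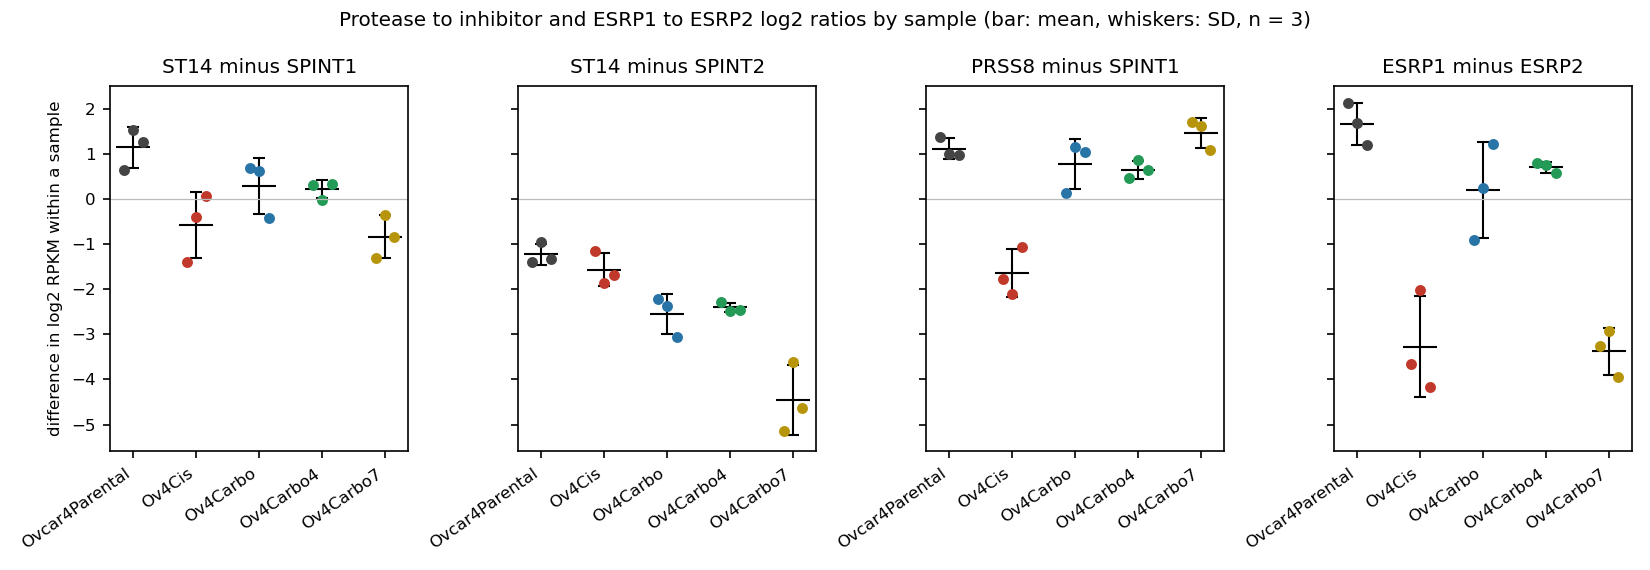
Log2 ratio of 2 transcripts within a sample (vertical axis, difference in log2 RPKM, 0 marks equal levels) by line (horizontal axis). Points are samples, bars are means and whiskers SD (n = 3). The panels show ST14 against SPINT1 and SPINT2, PRSS8 against SPINT1 and ESRP1 against ESRP2. Ov4Carbo7 is lowest for ST14 against SPINT2, between -5.13 and -3.62, and Ov4Cis is the line below 0 for PRSS8 against SPINT1.

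The resistant lines were next compared with each other. Ov4Cis was lower than Ov4Carbo for 8 of the 9 genes (all but RBM47), against 5.90% of all genes lower. It was lower than Ov4Carbo7 for all 9, against 7.20% of all genes. On log2(RPKM + 1) the differences of ESRP1 (-0.63), ST14 (-0.69) and SPINT1 (-0.98) from Ov4Carbo7 were under the size required. Against Ov4Carbo4, 8 were lower in Ov4Cis and RBM47 was higher, with 16.8% of all genes differing in either direction. The RBM47 difference was 1.03 ± 0.20 (limma adjusted p = 0.00139) and dropped under the size required without replicate 1 (0.97) or 2 (0.90) of Ov4Cis or replicate 3 of Ov4Carbo4 (0.82), and on log2(RPKM + 1) (0.90). When the title series was a term, ELF3 did not pass in this comparison (-1.31, limma adjusted p = 0.051). The largest of these differences was that of ESRP1, 7.68 lower in Ov4Cis than in Ov4Carbo4 (adjusted p = 1.39e-07).

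The 2 clones of Ov4Carbo differed from each other in 7 of the 9 genes, against 20.9% of all genes in either direction. Lower in Ov4Carbo7 than in Ov4Carbo4 were ESRP1 (-4.07), ST14 (-3.62), SPINT1 (-2.56), EPCAM (-2.22), PRSS8 (-1.75) and SPINT2 (-1.56), and RBM47 was higher. ESRP2 (0.00, 95% interval -0.59 to 0.60) and ELF3 (-0.50, -1.06 to 0.06) did not differ by the test. Both clones belong to the same title series. Compared with the line they came from, Ov4Carbo4 differed from Ov4Carbo in 1 of the 9, RBM47, against 14.2% of all genes in either direction, with values of 0.44 to 0.67 for ESRP1, ST14, PRSS8, SPINT1 and SPINT2, which did not pass. With a term for the title series, ESRP1 (1.58, adjusted p = 0.0399) and PRSS8 (1.48, 0.0381) were also higher in Ov4Carbo4.

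Ov4Carbo7 differed from Ov4Carbo in 8 of the 9 genes, against 13.3% of all genes in either direction, and the exception was ESRP2 (-0.07). ESRP1 was 3.64 lower, ST14 3.02, EPCAM 2.31, SPINT1 1.89, PRSS8 1.20, SPINT2 1.11 and ELF3 1.03 lower on the log2 scale, and RBM47 was higher. The PRSS8 call (limma adjusted p = 0.0405) rests on overlapping samples. It was lost with the replicate block (0.067), in a fit of these 2 lines alone (0.117), without replicate 2 or 3 of Ov4Carbo or replicate 1 or 3 of Ov4Carbo7 (adjusted p of 0.0715 to 0.156), and without Ov4Cis replicate 3 or Ov4Carbo4 replicate 1 or 3 (0.0515 to 0.0532). ELF3 fell under the size required without replicate 1 of Ov4Carbo (-0.91) or replicate 3 of Ov4Carbo7 (-0.87), and SPINT2 without replicate 3 of Ov4Carbo (-0.99). When the title series was a term, 5 of the 9 genes differed, against 9.4% of all genes in either direction in that fit.

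The likeness of pattern over the 15 samples was described with Pearson's r, which reflects mainly the differences between the 5 lines. ESRP1 and SPINT1 were each other's most similar gene (r = 0.99) among the 12774 genes ranked. PRSS8 was most similar to CDH1, the E-cadherin gene (r = 0.996), followed by CLDN4 and CDS1 (0.98 each). EPCAM followed EPS8L1 (0.99), ESRP1 and LOXL1 (0.98 each). SPINT2 followed CHMP4C, SFN and CLDN4 (0.99 each), ST14 followed CDC42BPG, EPPK1 and EPHA1 (0.98 each), and ESRP2 followed the keratins KRT19 and KRT7 (0.98 each) and GPR180 (0.98). CDH1 had line means of 4.63 in the parental line, 3.62 in Ov4Carbo4, 2.88 in Ov4Carbo, 1.80 in Ov4Carbo7 and -3.52 in Ov4Cis. That is the order of PRSS8, and also of ESRP1, ST14, SPINT1 and SPINT2.

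RBM47 was unlike the others in its pattern. The r of RBM47 with the other 8 genes ran from -0.15 (ST14) to 0.21 (ESRP2), and its most similar genes were TENT5A, CACNA2D3 and TRAK1 (0.95 to 0.96). TENT5A had its highest line mean in Ov4Carbo7 (2.66) and its lowest in Ov4Carbo4 (-2.38), as RBM47 did. ELF3 was closest to GLDCP1 (0.97), GLDC and MAP1LC3A (0.94 each). GLDCP1 is a pseudogene of GLDC, and reads could be shared between the pair.

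Other genes of the same pathways were drawn from lists compiled from general knowledge, again with earlier results of these data known. For reading their counts, 8.46% of all genes were higher and 7.41% lower in Ov4Cis than in the parental line, 5.76% and 6.93% in Ov4Carbo, 7.43% and 7.70% in Ov4Carbo4, and 9.26% and 7.75% in Ov4Carbo7. Of 17 other type II and membrane-anchored serine proteases, 8 were in the table. Lower than in the parental line were 5, 4, 4 and 5 of them in the cisplatin line, the carboplatin line and its clones 4 and 7, the order kept for the lists below, and higher were 0, 2, 2 and 1. The list's median log2 difference was -1.99, -1.46, -1.05 and -3.32. TMPRSS4, TMPRSS13, PRSS21 and PRSS22 were lower in each of the 4 comparisons. TMPRSS4 changed from a mean of 3.36 in the parental line by -9.16, -2.73, -2.97 and -4.45 on the log2 scale. In the same order PRSS22 changed by -8.76, -2.90, -3.66 and -6.0 from 3.40, and PRSS21 (testisin) by -2.37, -3.82, -1.91 and -8.81 from 3.25. TMPRSS2 and TMPRSS5, named after their values were seen, and HPN account for the other calls. TMPRSS13, already low in the parental line at -0.90, differed by less than the size required on log2(RPKM + 1) in all 4. HPN (hepsin) moved the other way in the carboplatin line, rising by 4.49 in Ov4Carbo (limma adjusted p = 0.000668) and 3.13 in Ov4Carbo4 (0.00514), with -0.62 in Ov4Cis and 1.79 in Ov4Carbo7, which did not pass. The Ov4Carbo7 value passed in a fit of the 2 lines alone (limma adjusted p = 0.0467), with the title series term (3.68, 0.0459), and without replicate 1 of the parental line (2.39, 0.0282), Ov4Cis (0.0443) or Ov4Carbo (0.0474). On log2(RPKM + 1) the HPN rises measured 2.72 in Ov4Carbo and 1.58 in Ov4Carbo4, and the falls of TMPRSS4 and PRSS22 in Ov4Cis and of PRSS21 in Ov4Carbo7 measured 3.47, 3.50 and 3.36. When the title series was a term, TMPRSS4 (0.0643), PRSS21 (0.108) and PRSS22 (adjusted p = 0.0656) did not pass in Ov4Carbo4, nor TMPRSS13 in Ov4Carbo7 (0.0948).

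Of 17 substrates of matriptase or prostasin and partners of EPCAM, 12 were in the table. Lower were 5, 4, 6 and 4, and 1 was higher, in Ov4Carbo, with medians of -0.90, -0.88, -1.02 and -0.66. CLDN7, the claudin that EPCAM protects, changed by -5.36, -2.41, -2.73 and -4.30 from 5.28 in the parental line. Other calls, named after their values were seen, included those of MST1, MST1R, PLAU, PLAUR and SCNN1A. With the title series as a term, CLDN7 in Ov4Carbo4 was -1.13 (limma adjusted p = 0.145). CDCP1, a surface protein cleaved by serine proteases, fell by 5.56 in Ov4Cis and 2.87 in Ov4Carbo4 and was -0.76 in Ov4Carbo and -0.73 in Ov4Carbo7. TFPI2, a Kunitz-type inhibitor, rose by 1.17 in Ov4Carbo (limma adjusted p = 0.0118, and 0.0512 without parental replicate 2) and was -0.42 in Ov4Cis and 0.26 in Ov4Carbo7. It fell by 1.53 in Ov4Carbo4 (0.00184, and 0.0691 with the title series term).

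Of 40 other splicing regulators, 35 were in the table, and 3, 0, 2 and 1 of them were higher and 3, 2, 2 and 1 lower. As shares, these counts were close to or below those of all genes given above (8.46% and 7.41% in Ov4Cis, for example). The median log2 difference was 0.02, -0.09, 0.23 and -0.17. MBNL3, a muscleblind protein, fell by 7.55 in Ov4Cis and 7.72 in Ov4Carbo4 from 2.10 in the parental line, and the difference was -0.77 in Ov4Carbo7. Both falls measured 2.37 on log2(RPKM + 1). In Ov4Carbo it fell by 1.5 (limma adjusted p = 0.0277), a call lost without parental replicate 2 or 3 or Ov4Carbo replicate 2 or 3 (adjusted p of 0.0603 to 0.088). RBM24 rose by 1.78 in Ov4Cis, and NOVA2 rose by 3.90 in Ov4Carbo4 from -2.52 in the parental line (1.60 on log2(RPKM + 1)). The other calls, named after their values were seen, were those of KHDRBS3, MBNL2, RBFOX3 and RBM20, and that of NOVA2 in Ov4Carbo7. This last call did not hold on log2(RPKM + 1) (-0.16, limma adjusted p = 0.341), with the title series term (-0.03, 0.982), or without parental replicate 1 (0.11) or Ov4Carbo7 replicate 1 (0.0685) or 2 (0.0814).

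Genes whose transcripts the ESRP proteins splice were all in the table, 18 of 18. In Ov4Cis 1 was higher and 3 lower, in Ov4Carbo 0 and 1, in Ov4Carbo4 1 and 1, and in Ov4Carbo7 1 and 3, with medians of -0.05, -0.12, 0.17 and -0.35. The table gives 1 value a gene, so which exons were used was not measured. CD44 was 4.26 in the parental line and differed in all 4 lines in both directions: 1.23 in Ov4Cis (limma adjusted p = 0.0327), 1.09 in Ov4Carbo7 (0.0487), -1.39 in Ov4Carbo (0.0211, overlapping samples) and -2.30 in Ov4Carbo4 (0.000794). The first 3 of these were lost on leaving out any of several samples (adjusted p of up to 0.12, 0.158 and 0.0834), and CD44 in Ov4Carbo7 was lost with the replicate block (0.065) and turned to -0.64 with the title series term. LSR fell by 4.10 in Ov4Cis and 1.19 in Ov4Carbo7, and was -0.61 in Ov4Carbo and 0.28 in Ov4Carbo4. FGFR3 fell by 1.29 in Ov4Cis (0.94 on log2(RPKM + 1), under the size required) and by 2.40 in Ov4Carbo7. EXOC7 was 1.03 higher in Ov4Carbo4, with 0.96 without parental replicate 1, 0.98 without Ov4Carbo4 replicate 3 and 0.54 with the title series term, all under the size required. FGFR2 in Ov4Carbo7 and RALGPS2 in Ov4Cis, named after their values were seen, were also lower.

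Of 26 other ETS factors, 19 were in the table. Higher were 1, 1, 0 and 2, and lower were 3, 4, 3 and 2, with medians of -0.06, -0.26, -0.03 and -0.13. SPDEF, an epithelial ETS factor, was low in the parental line (-1.45) and changed by -2.50, -4.08, -3.29 and -2.86, but by less than the size required on log2(RPKM + 1). With the title series term, SPDEF did not pass in Ov4Carbo4 (limma adjusted p = 0.0793) or Ov4Carbo7 (0.146). EHF, another epithelial ETS factor, and ETV4 were also among the genes called lower and were named after their values were seen. FLI1 rose by 2.55 in Ov4Cis and 1.30 in Ov4Carbo7. It fell by 1.32 in Ov4Carbo, and by 0.90 without Ov4Carbo replicate 2, and the call was lost in a fit of these 2 lines alone (limma adjusted p = 0.101). With the title series term, FLI1 in Ov4Carbo7 was -0.05. ETV5 rose by 1.39 in Ov4Carbo and 1.37 in Ov4Carbo7 (limma adjusted p = 0.0731 with the title series term). ETS1 fell by 1.17 in Ov4Carbo (-0.88 without its replicate 2) and by 1.99 in Ov4Carbo4. ERF fell by 1.05 in Ov4Carbo7, with -0.99 without parental replicate 3 or Ov4Carbo7 replicate 1.

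Of 13 epithelial and epithelial-mesenchymal transcription factors, 10 were in the table. Lower were 5, 4, 2 and 4, and higher were 2, 2, 2 and 3, with medians of -0.83, -0.41, 0.15 and -0.49. GRHL2, an activator of epithelial genes, changed from 3.43 in the parental line by -9.52, -6.07, -3.90 and -9.95. OVOL1, a repressor of mesenchymal genes, changed from 1.42 by -7.17, -4.52, -4.55 and -6.73 in that order. The changes of GRHL2 on log2(RPKM + 1) were -3.53, -3.25, -2.77 and -3.54, and those of OVOL1 -1.85, -1.69, -1.72 and -1.84. The differences between lines in these sizes therefore depend on the treatment of low values. With the title series term, GRHL2 in Ov4Carbo4 was -0.43 (limma adjusted p = 0.595). TWIST1, a mesenchymal factor, rose by 6.18, 4.88, 5.52 and 6.24 from -5.85, to means of 0.33, -0.98, -0.33 and 0.39. On log2(RPKM + 1) the TWIST1 rises in Ov4Carbo (0.58) and Ov4Carbo4 (0.82) were under the size required. ZEB1, a repressor of epithelial genes, rose by 1.68 in Ov4Cis and 1.35 in Ov4Carbo7 and was 0.28 in Ov4Carbo and 0.46 in Ov4Carbo4. With the title series term, ZEB1 in Ov4Carbo7 was 0.78 and in Ov4Carbo4 -0.11. GRHL1, OVOL2, KLF5 and TWIST2 account for the other calls and were named after their values were seen.

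**Figure D4:**
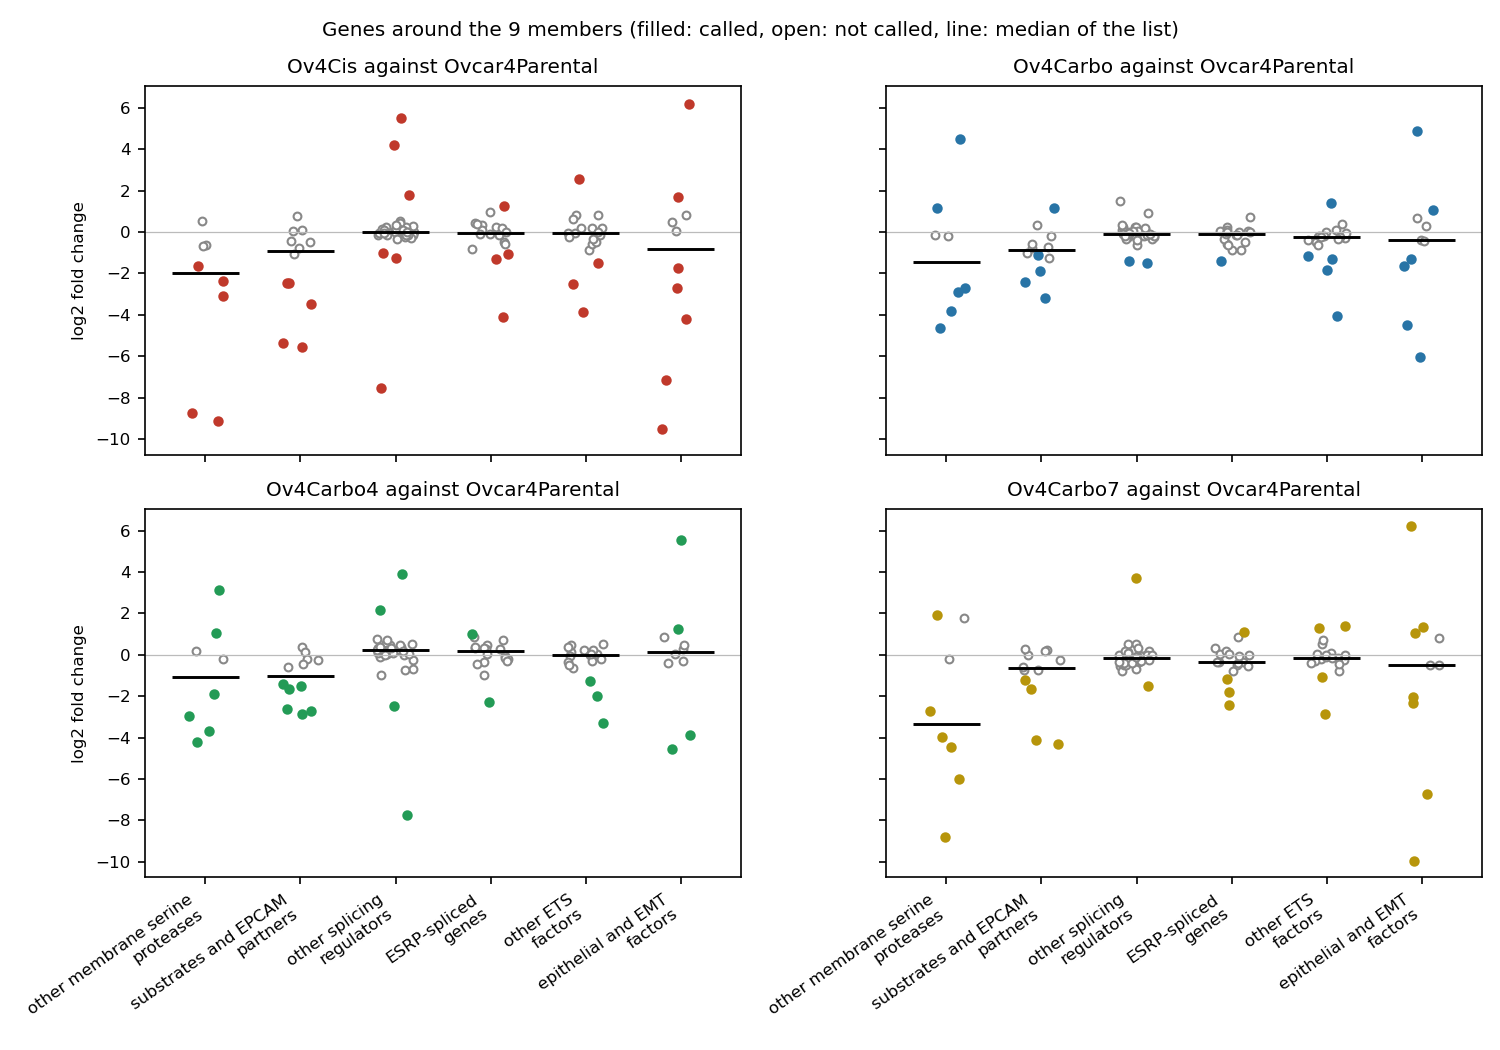
Log2 fold change of every gene of the 6 lists (vertical axis) in each resistant line against Ovcar4Parental, by list (horizontal axis). Points are genes, filled where the test and the size required were passed and open otherwise, and horizontal lines are list medians. The medians of splicing regulators and ESRP-spliced genes lie between -0.35 and 0.23, though single splicing regulators reach from -7.72 to 5.51, and the membrane proteases have medians between -3.32 and -1.05.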

How the data were processed

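RNA from cultured cells was sequenced after polyA capture, per the labels' protocols. The authors deposited 1 table of log2 RPKM values for 16604 genes and 15 samples, normalized with cqn (conditional quantile normalization) per the name of the table. That name also mentions a threshold whose rule is not given in the sources used here. The submitters' processing notes name BWA 0.7.15-r1140, HTSeq and the builds hg19 and GRCh37, with no roles. Counts per gene were not used, so the depth is unknown.

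limma 3.58.1 (R 4.3.3) was run on the log2 table as deposited, all genes and samples together, with 1 mean per line and Benjamini-Hochberg adjustment over all genes within each of 10 contrasts. The threshold was an adjusted p of 0.05 together with a log2 difference of 1 in either direction. Log2 ratios of 2 genes were tested with exact permutation tests in Python 3.11.15. All 9 members are named. Of each list, genes called in the same direction in all 4 lines are named, up to 5, and then the largest called rise and fall of each contrast with a higher line mean of at least 1. Likeness names the 3 genes with a symbol, of highest line mean at least 1, with the highest r. Some genes that these rules select are not reported here. The members and lists were chosen with earlier results of these data known. On simulated data of 16604 genes, 183 of 200 genes changed by 2 log2 units in Ov4Cis against Ovcar4Parental were recovered. There were 5 false calls among the genes left unchanged. The simulation held no difference between the title series. Overlaps of genes came from GENCODE v29 (GRCh38), which is not the authors' build, so gene coordinates are not given.

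The alternatives were a variance trend, sample median centring, a filter at mean log2 RPKM 1, log2(RPKM + 1), the 2 lines alone, the replicate number as a block, the title series as a term, and leaving out each replicate. The ratios were tried only on log2(RPKM + 1), with the replicate block and leaving out each replicate.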

Additional observations from a re-analysis of the deposited data

Results flagged for a closer look

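For each of the 9 genes the change against the parental line differed between 2 of the resistant lines, by limma's test of the difference itself. Of all genes, 76.9% differed among the 5 lines by limma's F-test (adjusted p under 0.05, no size required). The share of all genes with a difference in at least 1 pair of resistant lines was not counted. In a single pair of resistant lines, 13.3% to 20.9% of all genes differed in either direction. The largest such differences lay between Ov4Cis and Ov4Carbo4 for ESRP1 (-7.68), PRSS8 (-6.80), SPINT2 (-6.13), ST14 (-5.30) and SPINT1 (-4.51), on the log2 scale and lower in Ov4Cis. They lay between Ov4Cis and Ov4Carbo for EPCAM (-4.15), ESRP2 (-3.77) and ELF3 (-2.18), again lower in Ov4Cis. For RBM47 the largest difference lay between the 2 clones, 2.42 higher in Ov4Carbo7 than in Ov4Carbo4. Each line is represented by 3 cultures, and no reason for these differences was tested.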

How the results depend on the processing

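The counts of members that passed stayed within 1.5 times the reported count in all 10 contrasts under the variance trend, median centring, low-value filter, log2(RPKM + 1), 2-line fit and replicate block. With a term for the title series, estimated from Ov4Carbo replicate 1 against replicates 2 and 3 alone, the count went from 4 to 2 in Ov4Carbo4 against Ovcar4Parental, from 1 to 3 in Ov4Carbo4 against Ov4Carbo and from 8 to 5 in Ov4Carbo7 against Ov4Carbo. In the same order, the share of all genes that differed went from 15.1% to 17.9%, from 14.2% to 13.7% and from 13.3% to 9.4%. That term also ended single calls in other contrasts, such as PRSS8 in Ov4Carbo7 against Ovcar4Parental and ELF3 in Ov4Cis against either clone. Leaving out 1 replicate gave 4 to 5 calls for Ov4Carbo, 3 to 4 for Ov4Carbo4, and 8 and 7 throughout for Ov4Cis and Ov4Carbo7, all against the parental line.

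Signs turned as follows. On log2(RPKM + 1), ST14 against SPINT2 in Ov4Cis was 0.59. The ratios were not fitted with the title series term. With the title series term and against the parental line, PRSS8 was 0.0575 in Ov4Carbo4, CD44 -0.64, ETS1 -0.45, FLI1 -0.0496 and RBM24 -0.33 in Ov4Carbo7, and FGFR3 -0.0027, FLI1 -0.84 and ZEB1 -0.11 in Ov4Carbo4, and EPCAM in Ov4Carbo4 against Ov4Carbo was 0.29. On leaving out 1 replicate, values that had not passed crossed 0: ESRP1 (-0.13 to 0.91) and EPCAM (-0.27 to 0.0805) in Ov4Carbo4 against Ov4Carbo, ESRP2 in Ov4Carbo7 against Ov4Carbo (-0.20 to 0.0577) and Ov4Carbo4 (-0.12 to 0.13), and ETS1 in Ov4Carbo7 against the parental line (-0.0423 to 0.11). The cause was not tested.

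The replicate numbers did not pair the samples: of 30 pairs with the same number, 11 had correlated deviations above 0.1 and 14 below -0.1, between -0.39 and 0.44, and 4 of 15 samples correlated best with their own number. The replicate block took the count in Ov4Carbo7 against Ov4Carbo from 8 to 7 (PRSS8) and also ended the call of CD44 in Ov4Carbo7 (limma adjusted p = 0.065). The lowest values (ESRP1 and PRSS8 in Ov4Cis) are limited by unknown depth. ST14, ESRP2 and SPINT1 were also low in Ov4Cis, at line means of -1.48, -1.01 and -0.90. The sizes of their falls in that line are therefore uncertain too.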
